A study of Bos taurus with 8 samples.

Results

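Genes of steroid hormone synthesis and of the response to gonadotropins were followed in bovine blastocysts grown with or without serum lipids. The 10 genes are STAR, CYP11A1, HSD3B1, CYP19A1, FSHR, LHCGR, INHA, INHBA, NR5A1 and FOXL2, and every probe that the platform's table assigns to one of their symbols was taken. These are 15 probes among 43794 expression probes, and all 10 genes had at least 1. The genes were listed by function, with earlier results of these data known.

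Holstein embryos were matured, fertilized and cultured in vitro from slaughterhouse ovaries, and the labels name serum albumin from Sigma for both groups. Both groups shared the control culture to the stage of 8 to 16 cells on day 3, and the lipid group then received lipids extracted from serum until the blastocyst stage on day 7, while the control group received none. Each of the 4 control and 4 lipid pools held 10 embryos taken at 170 hours of age, counted from fertilization, and the RNA was amplified before labelling. Each control pool was set against a lipid pool on 2 arrays with exchanged dyes, 1 on slide 87 and 1 on slide 88, which gave 8 arrays of 4 pool pairs. The values were foreground intensities of the scanner and log2 ratios of lipid over control after loess normalization.

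Steroid hormones are made from cholesterol. The transfer protein STAR brings cholesterol to the inner mitochondrial membrane, CYP11A1 cuts its side chain to give pregnenolone, HSD3B1 turns pregnenolone into progesterone, and CYP19A1, the aromatase, makes oestrogens from androgens. In the ovarian follicle the gonadotropins FSH and LH switch these steps on through their receptors FSHR and LHCGR, with the nuclear receptor NR5A1 and the forkhead factor FOXL2 as transcription factors of the steroid-making and granulosa cells. INHA and INHBA encode subunits from which inhibins and activins, which lower and raise FSH release, are built. Granulosa and cumulus cells surround the oocyte, and in cattle the placenta, which descends in part from the trophectoderm of the blastocyst, makes progesterone and oestrogens too.

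A probe was counted as above background in a channel when its foreground passed a limit set from the negative controls of that array and channel (their mean and 2 SD above it), and it was kept when either channel did so on at least 4 of the 8 arrays. Of the 15 probes 11 were kept, for 8 of the 10 genes. The 2 probes of LHCGR and the probe of FOXL2 were above the limit in neither channel on any array, so no ratio is given for these genes. The highest foreground of any of these 3 probes was 0.964 of its limit. A further CYP19A1 probe, EMBV3_08064, passed on 2 arrays and was the nearest of the probes outside the rule, and INHA, which passed on exactly 4, was the nearest inside it. INHA passed in the lipid channel on 3 arrays and in the control channel on 1, and FSHR in each channel on 3. Array 1 of slide 87 had negative control limits of 958 in Cy3 and 461 in Cy5, against 182 to 294 elsewhere, and 20.5% of all probes passed there against 55.2% to 73.8% on the other arrays.

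**Figure D1:**
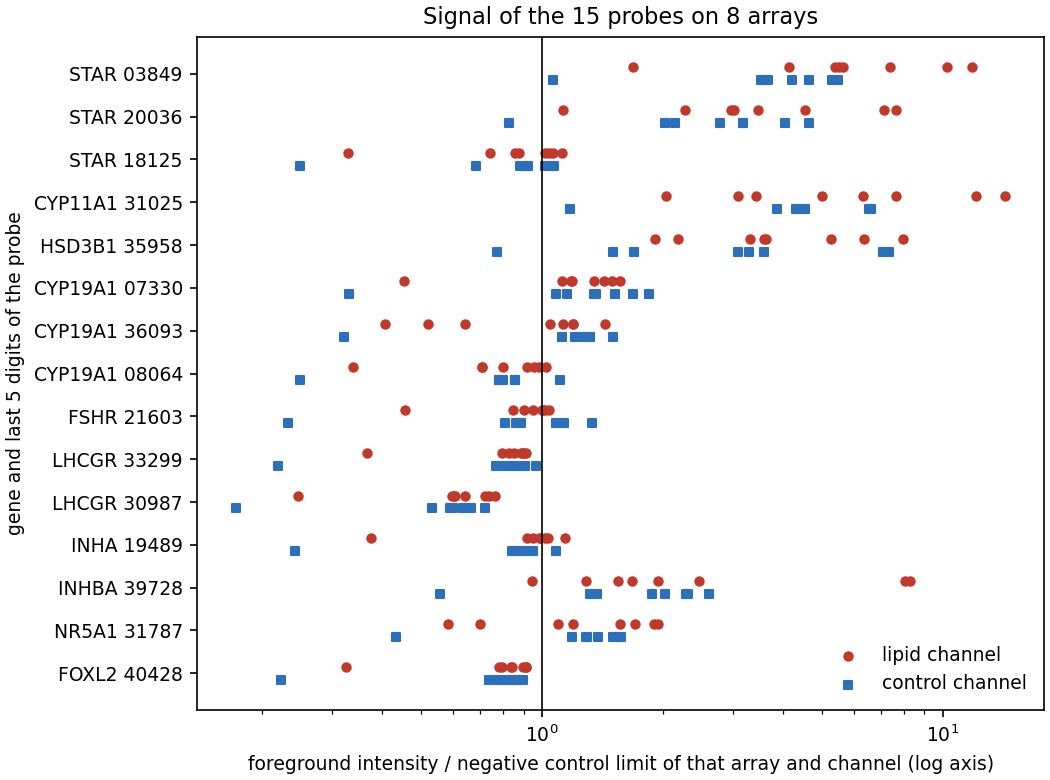
Foreground intensity divided by the negative control limit of the same array and channel (log axis) for the 15 probes, with 8 red points for the lipid channel and 8 blue squares for the control channel in each row. STAR EMBV3_03849 and CYP11A1 lie right of the line at 1 in all 16 channels, both LHCGR probes and FOXL2 lie left of it in all 16, and the leftmost points of the rows come from array 1 of slide 87.

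The brightest probes of the first steps of steroid synthesis read above the limit in most channels. STAR through its brightest probe EMBV3_03849 and CYP11A1 were above the limit in both channels of all 8 arrays. HSD3B1 and the second STAR probe, EMBV3_20036, were above it in 15 of 16 channels, and INHBA in 14. NR5A1 passed in 13 of 16 channels, CYP19A1 in 14 through EMBV3_07330 and in 12 through EMBV3_36093, at no more than 1.95 times the limit for any of these 3 probes. Since the pools are whole embryos, fewer cells of a type and less RNA per cell cannot be told apart.

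Against the control, no probe of these genes and no probe of the array passed the threshold in limma (0 of 28844, or 0% called, lowest adjusted p = 0.996). An unadjusted p under 0.05 was found for 1 of the 11 kept probes, lower with lipid, and for 4.46% of all kept probes (1287), with 2.39% lower. Of the 11, 6 had a mean ratio above 0, against 46.3% of all kept probes. The median log2 ratio of the 11 was 0.12, against -0.01. That median is the value of INHA, a probe near background that passed the limit in the lipid channel on 3 arrays and in the control channel on 1. In pool pairs 1 to 4 the medians of the 11 probes were -0.04, 0.26, -0.07 and -0.03. The pool pairs thus gave different pictures, and 8 of the 11 probes were above 0 in pool pair 2, against 4, 3 and 5 in pool pairs 1, 3 and 4.

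STAR had the largest positive mean among the probes. The foreground of EMBV3_03849 was lowest at 777, had a median of 1402 and was highest at 2733 in the lipid channel, and in the control channel these values were 767, 1008 and 1285. Its log2 ratios on slides 87 and 88 were -0.12 and 0.03 in pool pair 1, 1.27 and 1.41 in pool pair 2, 0.45 and 0.30 in pool pair 3, and 0.50 and 0.33 in pool pair 4. The lipid pool was thus the higher one in 3 pool pairs, most in pool pair 2, and the arrays of one pool pair differed by at most 0.17. The mean was 0.52 ± 0.58 (SD, n = 4 pool pairs), or 1.44 times the control level, with a 95% interval of -0.05 to 1.10 (limma adjusted p = 0.996). Without pool pair 2 the mean was 0.25.

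CYP11A1 ranged from 657 to 3308 in the lipid channel, with a median of 1406, and from 789 to 1925 in the control channel, with a median of 1059. Its log2 ratios on slides 87 and 88 were 0.06 and 0.20 in pool pair 1, 0.58 and 0.78 in pool pair 2, -0.32 and -0.50 in pool pair 3, and 1.00 and 0.83 in pool pair 4. Each pool pair kept its sign on both arrays, but pool pair 3 had the opposite sign to the others. The mean was 0.33 ± 0.59 (SD, n = 4), with a 95% interval of -0.26 to 0.91 (limma adjusted p = 1.00). It was 0.21 without pool pair 2, 0.58 without pool pair 3 and 0.13 without pool pair 4.

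HSD3B1 ranged from 466 to 1741 in the lipid channel, with a median of 859, and from 373 to 1785 in the control channel, with a median of 702. Its log2 ratios on slides 87 and 88 were 0.61 and 0.64 in pool pair 1, 1.01 and 0.94 in pool pair 2, 0.12 and -0.70 in pool pair 3, and 0.24 and 0.05 in pool pair 4. Pool pairs 1 and 2 repeated closely between the slides, whereas in pool pair 3 the arrays differed by 0.82. The mean was 0.36 ± 0.55 (SD, n = 4), with a 95% interval of -0.19 to 0.91 (limma adjusted p = 0.996). It was 0.16 without pool pair 2 and 0.58 without pool pair 3.

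CYP19A1 was the gene whose kept probes lay below 0 in every pool pair. For EMBV3_36093 the log2 ratios on slides 87 and 88 were -0.24 and -0.31 in pool pair 1, -0.61 and -0.61 in pool pair 2, 0.06 and -1.09 in pool pair 3, and -0.39 and -1.58 in pool pair 4. The pool pairs averaged -0.28, -0.61, -0.52 and -0.98, so that the lipid pool was lower in 4 of 4 pool pairs and on 7 of 8 arrays. The mean was -0.60 ± 0.29 (SD, n = 4), or 1.51 times lower with lipid, with a 95% interval of -0.91 to -0.28. Its unadjusted p was the smallest of the 11 in limma, and it did not pass over all probes (limma adjusted p = 0.996, and 0.318 to 1.00 over the alternatives). An exact two-sided sign-flip test of its 4 pool pairs gave p = 0.125, the smallest that 4 pool pairs allow.

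The size of that difference depended on the slide. The mean was -0.30 on slide 87 alone and -0.90 on slide 88 alone, each with a dye term. On arrays 3 and 4 of slide 88, which gave the lowest ratios, the lipid channel was Cy5 and stood at 137 and 142, below the limits of 213 and 273. With the lipid channel in Cy3, on slide 87, the same pools stood at 330 and 260, above the limits of 230 and 217. The signal near background and its part in the ratio were not tested.

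The brighter CYP19A1 probe, EMBV3_07330, had log2 ratios of -0.19 and -0.14, -0.19 and -0.28, -0.003 and -0.08, and -0.30 and -0.64 on slides 87 and 88 in pool pairs 1 to 4. All 8 arrays were below 0, and each pool pair was nearer to 0 than for the other probe. The mean was -0.23 ± 0.18 (SD, n = 4), with a 95% interval from -0.46 to just above 0 (limma adjusted p = 0.996). It was -0.15 without pool pair 4. The third probe, EMBV3_08064, which was near background, had -0.07, -0.26, -0.02 and 0.07 in pool pairs 1 to 4.

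**Figure D2:**
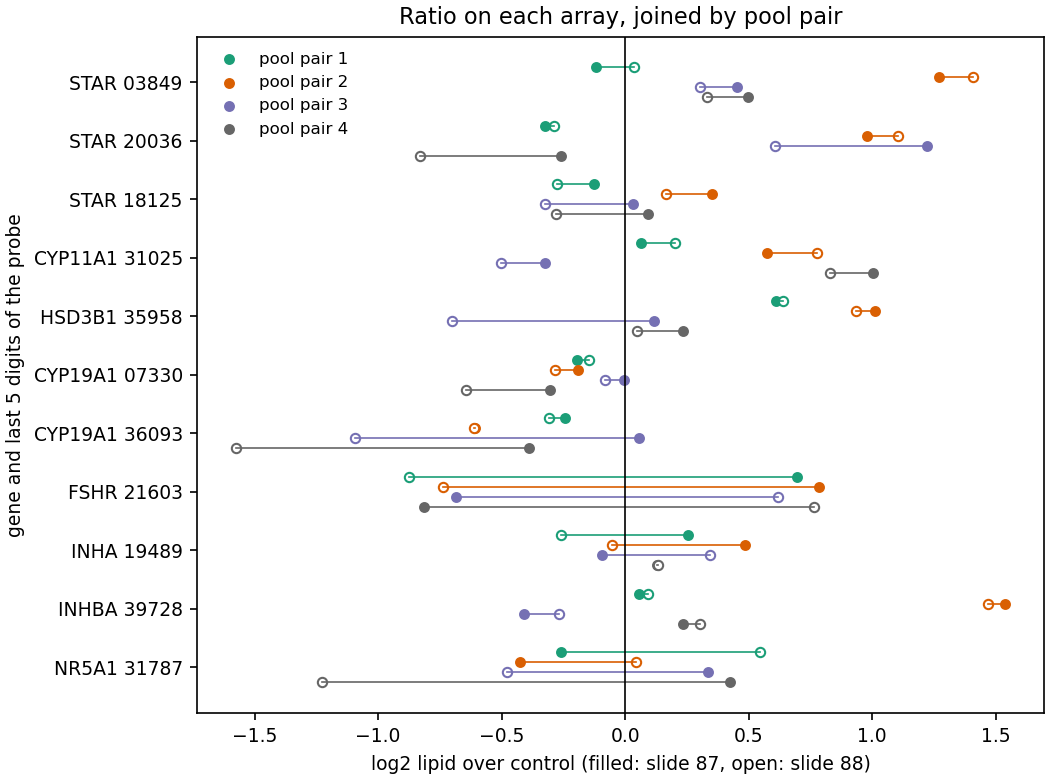
Log2 ratio of lipid over control for the 11 kept probes, with a filled point for slide 87 and an open point for slide 88 joined by a line for each of the 4 pool pairs. INHBA and STAR EMBV3_03849 show short lines, with pool pair 2 apart at 1.27 to 1.54, CYP19A1 lies left of 0 apart from 1 array, and the FSHR lines cross 0 in every pool pair.

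INHBA, the beta A subunit of activin A and inhibin A, had the largest ratio in a single pool pair among the 11 probes. Its foreground ranged from 331 to 1855 in the lipid channel and from 250 to 767 in the control channel. The log2 ratios on slides 87 and 88 were 0.06 and 0.09 in pool pair 1, 1.54 and 1.47 in pool pair 2, -0.41 and -0.27 in pool pair 3, and 0.23 and 0.30 in pool pair 4. The lipid pool of pool pair 2 was thus more than 2-fold above its control on both slides, while the other pool pairs lay on both sides of 0. The mean was 0.38 ± 0.79 (SD, n = 4), with a 95% interval of -0.39 to 1.15 (limma adjusted p = 1.00), and it was 0.002 without pool pair 2 and 0.62 without pool pair 3. The alpha subunit INHA, near background, had -0.003, 0.22, 0.12 and 0.13 in pool pairs 1 to 4, with a mean of 0.12 ± 0.09 (SD, n = 4, limma adjusted p = 0.996), and of 0.05 without array 1 of slide 87.

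The receptor FSHR and the transcription factor NR5A1 followed the dye more than the treatment. FSHR had log2 ratios of 0.62 to 0.78 on the 4 arrays with the lipid pool in Cy5 and of -0.87 to -0.68 on the 4 with it in Cy3. The pool pairs averaged to -0.09, 0.02, -0.03 and -0.03, a mean of -0.03 ± 0.05 (SD, n = 4), with a 95% interval of -0.19 to 0.13 (limma adjusted p = 1.00). It was -0.01 without pool pair 1, -0.05 without pool pair 2 and -0.23 without array 1 of slide 87, which leaves pool pair 1 with 1 dye orientation. Its foreground was 184 to 286 in all channels, at most 1.33 times the limit, so these values describe a probe close to background. NR5A1 had -1.23 to -0.26 with the lipid pool in Cy5 and 0.04 to 0.55 with it in Cy3, and pool pairs of 0.14, -0.19, -0.07 and -0.40. Its mean was -0.13 ± 0.23 (SD, n = 4, limma adjusted p = 1.00) and turned to 0.02 on slide 87 alone. It was -0.22 without pool pair 1, -0.04 without pool pair 4 and -0.03 without array 1 of slide 87.

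The arrays of one pool pair, read with exchanged dyes, show how far single ratios can be trusted. INHBA differed between its 2 arrays by at most 0.14, STAR EMBV3_03849 by at most 0.17 and CYP11A1 by at most 0.20, against an SD between pool pairs of 0.79, 0.58 and 0.59. For these 3 probes the pools differed by more than the arrays did. For CYP19A1 EMBV3_36093, FSHR and NR5A1 the largest difference between the slides was 1.19, 1.58 and 1.65, against an SD between pool pairs of 0.29, 0.05 and 0.23. HSD3B1 had 0.82 against 0.55 and STAR EMBV3_20036 had 0.62 against 0.82. The 2 measures are unlike, since a difference between the slides holds the dye effect, which cancels in the pool pair averages. Both arrays of a pool pair had one sign for 7, 8, 5 and 8 of the 11 probes in pool pairs 1 to 4, while over all kept probes 53.5%, 57.0%, 47.6% and 48.7% did.

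The probes of STAR did not give 1 ratio. On slides 87 and 88, EMBV3_20036 had -0.32 and -0.29 in pool pair 1, 0.98 and 1.10 in pool pair 2, 1.22 and 0.61 in pool pair 3, and -0.26 and -0.83 in pool pair 4. Both bright probes were high in pool pair 2, but in pool pair 4 they had opposite signs on both slides, at 0.42 and -0.55 on average. The mean of EMBV3_20036 was 0.28 ± 0.82 (SD, n = 4, limma adjusted p = 1.00). It was 0.47, 0.02, 0.06 and 0.55 without pool pairs 1, 2, 3 and 4 in turn. The dim probe EMBV3_18125, above the limit in 7 of 16 channels, had -0.20, 0.26, -0.15 and -0.09 in pool pairs 1 to 4, a mean of -0.05 ± 0.21 (SD, n = 4).

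The bright STAR probes shared their sign on 5 of 8 arrays and in 3 of 4 pool pairs, with r = 0.66 over the 8 arrays, which come from 4 pool pairs. The kept CYP19A1 probes shared it on 7 of 8 arrays and in 4 of 4 pool pairs, with r = 0.71. Over the 2695 genes with at least 2 kept probes, the brightest pair had a median of 4 of 8 arrays with one sign and a median r of 0.17. These are descriptions, since probes of one gene read the same RNA. The files used here give no probe positions, so isoforms or transcript ends could not be compared.

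**Figure D3:**
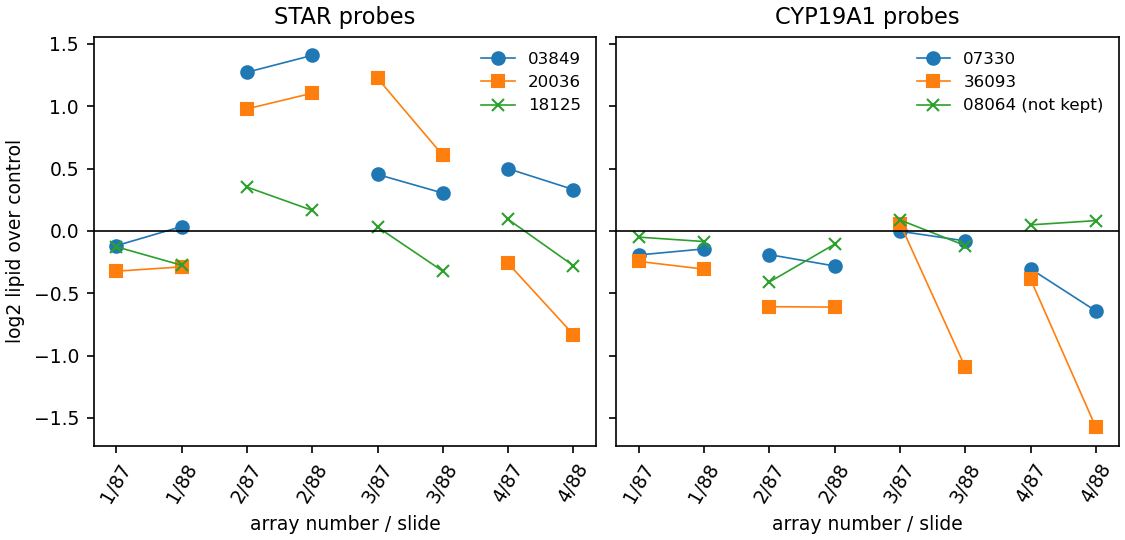
Log2 ratio of lipid over control for each probe of STAR (left) and CYP19A1 (right) on the 8 arrays, named by array number and slide, with the 2 arrays of a pool pair joined. The bright STAR probes lie together near 1 in pool pair 2 and on opposite sides of 0 in pool pair 4, and both kept CYP19A1 probes lie at or below 0.06 throughout.

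The level of these transcripts also varied among pools of one treatment. On the log2 scale of pool levels, HSD3B1 had 9.36, 8.34, 9.37 and 10.49 in control pools 1 to 4 and 9.99, 9.32, 9.08 and 10.63 in the lipid pools. The range over the control pools, 2.15, was above that of 99.4% of kept probes, whose median range was 0.46. Both pools of number 4 were thus the highest of their group, and the groups overlapped. The 2 pools of a number were read on the same spots, so a shared level can come from the spots as well as from the embryos, and its source was not tested.

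CYP11A1 had 9.85, 10.72, 9.71 and 9.70 in the control pools and 9.99, 11.39, 9.29 and 10.62 in the lipid pools, with number 2 the highest of each group. INHBA had 8.71, 9.15, 8.61 and 7.89 in the control pools and 8.79, 10.66, 8.27 and 8.16 in the lipid pools, also with number 2 the highest and number 4 the lowest of each group. STAR EMBV3_03849 was more even in the control pools, at 9.74, 9.79, 9.75 and 10.07, than in the lipid pools, at 9.70, 11.13, 10.13 and 10.49. The ranges over the lipid pools of STAR, CYP11A1 and INHBA, at 1.43, 2.10 and 2.49, exceeded those of 94.7%, 98.5% and 99.2% of kept probes. By mean intensity these probes were brighter than 82.1%, 82.5% and 68.3% of kept probes.

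For CYP19A1 EMBV3_36093 the control pools had 7.62, 8.02, 7.76 and 7.85 and the lipid pools 7.34, 7.41, 7.24 and 6.87, which did not overlap. Its lipid channel passed the limit on 5 of 8 arrays. Lipid pools 1, 3 and 4 and control pool 1 each average in a reading below the limit, so these levels are in part bounds. Among the 11 kept probes it was the 1 without overlap, and 0.874% of all kept probes had none. A mean ratio of at least 1.5-fold was also found for this probe alone of the 11, against 0.641% of all kept probes. One sign in all 4 pool pairs was seen for 2 of the 11, both of CYP19A1, against 11.4%. A ratio of at least 2-fold in some pool pair was seen for 3, both bright STAR probes and INHBA, against 3.98%, each of them upward in pool pair 2, where 1.47% of all kept probes were that much higher with lipid.

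**Figure D4:**
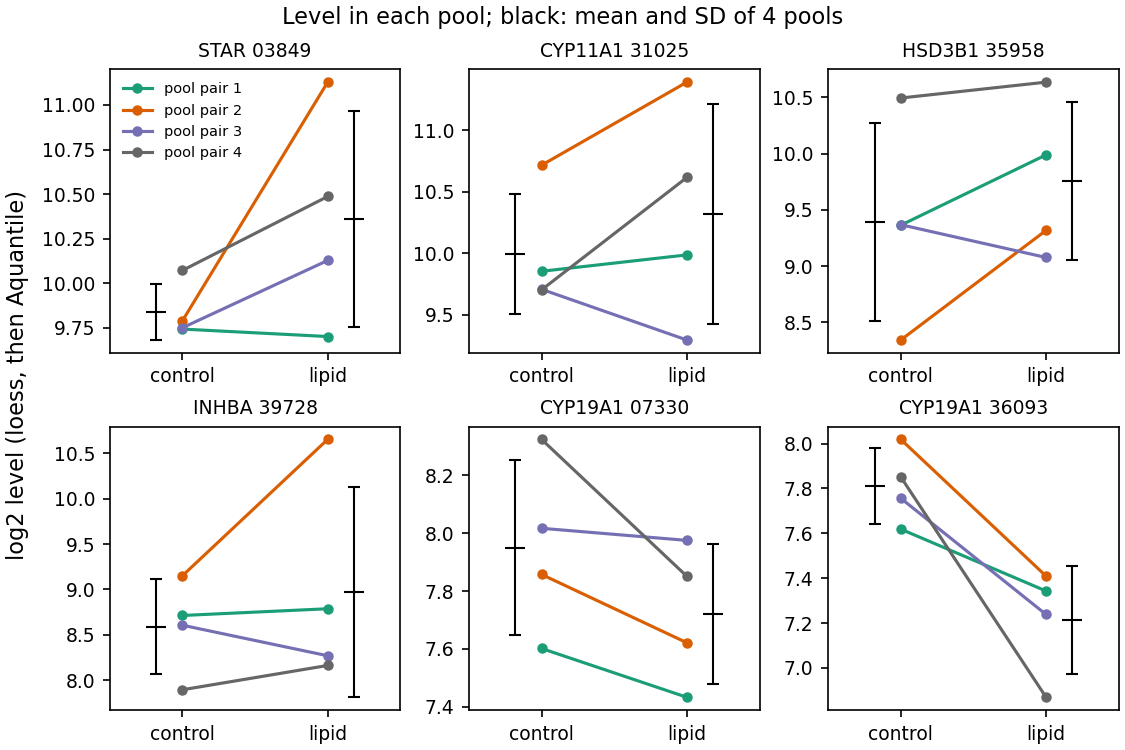
Log2 level in each control and lipid pool for 6 probes, joined by pool pair, with the mean and SD of the 4 pools in black beside each group and a separate vertical scale in each panel. Lipid pool 2 is the highest pool for STAR (11.13), CYP11A1 (11.39) and INHBA (10.66), and HSD3B1 spans 8.34 to 10.49 among control pools. For CYP19A1 EMBV3_36093 every lipid pool lies below every control pool, with a reading below the limit in lipid pools 1, 3 and 4 and control pool 1.

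Markers of the embryo and of cells that could accompany it were read in the same pools. The pluripotency factors POU5F1 and NANOG and the keratins KRT8 and KRT18 were above the limit in both channels of all 8 arrays, while the trophectoderm factor CDX2 passed on 5 arrays. Of the granulosa and cumulus markers outside the 10 genes, 9 of 13 were kept. AMH, its receptor AMHR2 and HSD17B1 were above the limit on 1, 0 and 2 arrays and, like TNFAIP6, were not kept. FSHR and FOXL2, which granulosa cells also express, passed on 5 and 0 arrays. SERPINE2 passed in both channels of all 8 arrays, and GATM and GJA1 in each channel on 7. All 12 markers of theca and ovarian stroma were kept, many of which other cell types express too.

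In pool pair 2, where STAR, INHBA and HSD3B1 had their highest ratios, the granulosa and cumulus markers had a median log2 ratio of 0.43. The theca and stroma markers had one of 0.84, with 6 of 12 at least 2-fold higher, against 1.47% of all kept probes. In pool pairs 1, 3 and 4 these medians were -0.18, 0.12 and 0.07, and -0.20, -0.04 and 0.18. The summed linear level of the theca and stroma markers was 66149 in lipid pool 2, against 24739 to 37850 in the other lipid pools and 25621 to 36668 in the control pools. That of the granulosa and cumulus markers was 21766, against 9244 to 12603 and 8049 to 11552. Among the latter markers GJA1, SERPINE2 and GATM had log2 ratios of 1.74, 1.55 and 0.97 in pool pair 2, while HAS2 and INHBB had -0.18 and -0.16. PTX3, FST, CD44 and KITLG lay between, at 0.74, 0.43, 0.21 and 0.01, with FST as the median. HAS2 passed in the lipid channel on 3 arrays and in the control channel on 4, INHBB on 5 and 2, and FST on 4 and 3. Within the theca and stroma list, LUM, a proteoglycan of connective tissue, had 3.70 in pool pair 2 and VIM, a filament protein of mesenchymal cells, 2.96. COL3A1, COL1A2 and SPARC had 2.52, 1.12 and 1.02, and DCN, whose control channel passed on 1 array, 1.83. ACTA2, POSTN and COL1A1 had 0.65, 0.54 and 0.10, and TAGLN, whose control channel passed on 1 array too, 0.08. CYP17A1 and INSL3, which mark theca cells, had 0.20 and -0.35. CYP17A1 passed the limit in the lipid channel on 4 arrays and in the control channel on 3, and INSL3 in each on 6. The medians in that pool pair were -0.07 for trophectoderm, -0.16 for inner cell mass and 0.10 for blood cell markers, and -0.34 for the 2 of 4 sperm markers kept. CYP19A1, which granulosa cells express, was at -0.61 and -0.24 in that pool pair, through probes that read close to the limit there. The part of granulosa, cumulus, theca or stroma cells in the STAR, INHBA and CYP19A1 values was not tested.

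**Figure D5:**
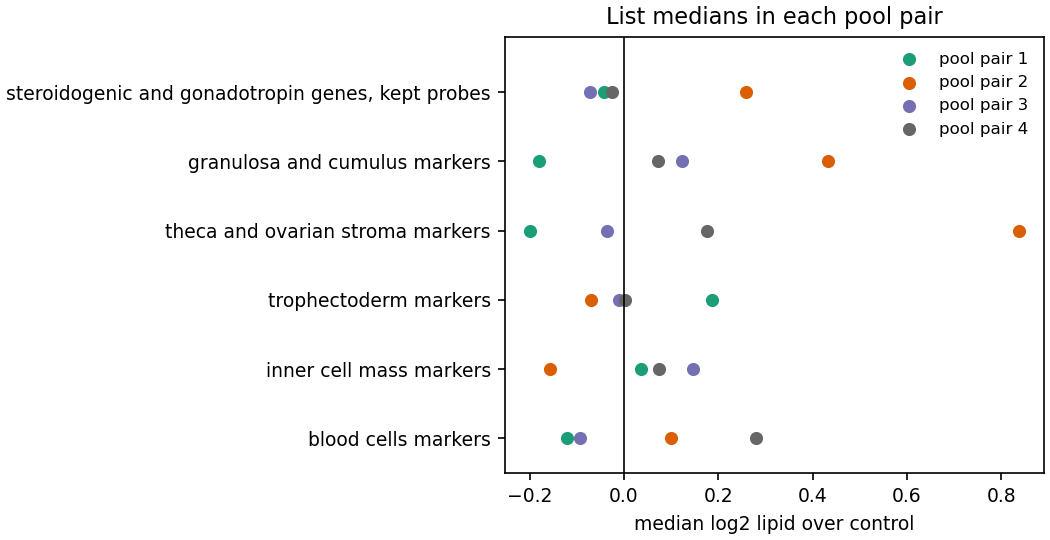
Median log2 ratio of lipid over control in each of the 4 pool pairs for the 11 kept probes of the steroidogenic and gonadotropin genes and for 5 marker lists. Pool pair 2 lies highest for the steroidogenic genes (0.26), the granulosa and cumulus markers (0.43) and the theca and stroma markers (0.84), and lowest for the trophectoderm and inner cell mass markers.

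Other genes of the pathway were read from lists, each gene through its brightest kept probe, and none passed the threshold in limma. For comparison with the list counts, 46.3% of all kept probes were above 0 and 4.46% had an unadjusted p under 0.05. One sign in all 4 pool pairs was seen for 11.4% of them. Of 24 kept genes of steroid synthesis and conversion, 16 were above 0 and 8 below, with a median of 0.05, and 0 in either direction had an unadjusted p under 0.05. The largest ratios there were those of HSD17B8, which oxidizes oestradiol, at 0.20 ± 0.24, HSD17B7, an enzyme of oestradiol and cholesterol synthesis, at -0.20 ± 0.59, and NPC2, a carrier of cholesterol out of lysosomes, at 0.18 ± 0.26 (SD, n = 4). The 3 other kept HSD17B8 probes had 0.29, 0.22 and -0.10. Of 7 kept steroid receptors 2 were above 0, with a median of -0.06. PGR, the progesterone receptor, had 0.46 ± 0.26 and was above 0 in 4 of 4 pool pairs (unadjusted p under 0.05, limma adjusted p = 0.996), but its control channel passed the limit on 2 of 8 arrays. ESRRA had -0.14 ± 0.15 and the glucocorticoid receptor NR3C1 0.12 ± 0.12. NR3C1 passed the limit in the lipid channel on 5 arrays and in the control channel on 2.

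Among regulators of steroidogenic genes other than NR5A1 and FOXL2, 6 of 8 kept genes were above 0, against 46.3% of all kept probes, with a median of 0.18. NR4A1, an orphan nuclear receptor induced by LH in the ovary, had 0.43 ± 0.29 (SD, n = 4), GATA4 had 0.37 ± 0.69, and NR5A2, the relative of NR5A1 that is active in the early embryo, had 0.26 ± 0.15 (limma adjusted p at least 0.996 for each). NR4A1 and NR5A2 had an unadjusted p under 0.05, as had 4.46% of all kept probes. NR4A1 and NR5A2 were above 0 in all 4 pool pairs, and, of the other 2 NR5A2 probes, the kept one had 0.29 ± 0.46 with -0.18 in pool pair 3. GATA4 had 1.37 in pool pair 2 and -0.21 to 0.17 elsewhere.

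In the gonadotropin signal list 8 of 14 kept genes were above 0, against 46.3% of all kept probes, with a median of 0.01. In each direction 1 had an unadjusted p under 0.05, against 4.46% of all kept probes in either direction. These were the arrestins, which uncouple receptors such as FSHR and LHCGR, ARRB2 at 0.50 ± 0.36 and ARRB1 at -0.58 ± 0.58 (SD, n = 4, limma adjusted p = 0.996 for each). ARRB1 had -1.38 in pool pair 4 and -0.002 in pool pair 3. RGS2, a brake on G proteins, had 0.40 ± 0.47, and its other kept probe, dimmer, 0.16 ± 0.21. That dimmer probe passed the limit in the lipid channel on 4 arrays and in the control channel on 0, so its control level is only a bound.

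Of the genes that gonadotropins induce in follicles, 8 of 9 kept were above 0, against 46.3% of all kept probes. Their median was 0.04, and none had an unadjusted p under 0.05, against 4.46% of all kept probes. SCG2, a secretogranin, had 1.10 ± 1.63, with 3.33 in pool pair 2 and -0.40 in pool pair 1. Its lipid channel passed the limit on 6 arrays and its control channel on 4. PTGS2, a prostaglandin synthase, had 0.22 ± 0.27, with 0.23 and -0.03 for its other kept probes. HAS2, a hyaluronan synthase, had 0.19 ± 0.46, and passed in the lipid channel on 3 arrays and in the control channel on 4. In the activin and inhibin list 10 of 15 were above 0, with a median of 0.03. The activin receptor ACVR1B, with an unadjusted p under 0.05 (limma adjusted p = 0.996), had -0.32 ± 0.23 and lay below 0 in each pool pair. FSTL3, which binds activin, had 0.28 ± 0.72, with 1.32 in pool pair 2, and the oocyte factor BMP15 had 0.20 ± 0.32.

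The genes whose ratios over the 8 arrays were most like those of STAR EMBV3_03849, after a dye term, were IL27RA, FBN1, SYNE2, TPRKB and PLAT, with r of 0.993 to 0.998. All 5 were highest in pool pair 2, at 1.19 to 2.99, and below 0 in pool pair 1. For CYP19A1 EMBV3_07330 they were DCAF12, TBC1D10B, ZMYM2, AK3L1 and TBCA, with r of 0.974 to 0.989, and each was lowest in pool pair 4, at -0.70 to -0.34. They were sought among the 15614 kept probes with a symbol, over arrays of 4 pool pairs. The correlations (Pearson) describe how alike the values run, and the order of the pool pairs is not the same for every gene.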

How the data were processed

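Spot intensities were measured in 8 two-colour arrays. Per the file headers, the scanner output deposited by the authors gives, for each spot, foreground intensity as a mean and local background intensity as a median, at 532 nm (Cy3) and 635 nm (Cy5). The authors also deposited processed values of the same arrays, taken to be log2 ratios, for which the submitters' processing notes name limma. These values ran as lipid over control on every array (r of 0.950 to 0.980 with the ratios computed here), and neither their log base nor their normalization is given in the sources used here.

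Intensities were corrected with normexp (offset 50), normalized by loess within arrays in limma 3.58.1 (R 4.3.3), and turned to log2 lipid over control. The limit of detection lay 2 SD above the mean of the 757 negative control spots, per array and channel, and probes past it in either channel on at least 4 of the 8 arrays were kept. The 2 arrays of a number were averaged into 1 pool pair. Arrays of the same number deviated together from the means of their dye orientation (r of 0.61 to 0.77, against -0.52 to -0.01 for other array pairs), as the design text's dye swap of each pair of pools implies. Centring on those means pushes the r of other array pairs below 0, so their negative sign is not separate evidence for the pairing. Mean ratios of n = 4 pool pairs were tested against 0 by lmFit and eBayes. The two-sided p-values were adjusted by Benjamini and Hochberg over all 28844 kept probes, and 0.05 was the threshold. The labels leave unsaid whether each pool had its own fertilization run, so p-values measure the spread between these pools. Levels per pool come from loess followed by Aquantile normalization. Precision is limited by the array number and by signal over background. The fit was also run on simulated data that gave every probe the same spread, so probes with a wide spread between pool pairs were not covered.

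The members, the lists and the alternatives were chosen with earlier results of these data known. All probes of the members are described. From each of 6 pathway lists, the 3 genes of largest absolute mean ratio through their brightest kept probe are named. For the brightest kept probes of STAR and CYP19A1, the 5 genes with the most similar ratios over the arrays are named too.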

Additional observations from a re-analysis of the deposited data

Results flagged for a closer look

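For the 11 kept probes and the lists, 45 sets of 4 values were searched for 1 value far from the other 3, which chance gives in about 1 set in 20, and 3 were found. The level of STAR EMBV3_03849 in control pool 4 was 10.07 on the log2 scale, against 9.74 to 9.79 in the other control pools. The level of CYP11A1 in control pool 2 was 10.72, against 9.70 to 9.85. The median log2 ratio of the steroid receptors was 0.44 in pool pair 3, against -0.16 to -0.06 in the others.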

How the results depend on the processing

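Each mean ratio of the 11 kept probes was recomputed under up to 18 alternatives. Of 191 such values 188 kept their direction, all stayed above an adjusted p of 0.05 (lowest 0.318), and 3 turned. STAR EMBV3_18125 was 0.0867 on slide 87 alone and -0.147 to 0.00618 without 1 pool pair, above 0 without pool pair 1, and NR5A1 was 0.0187 on slide 87 alone. The number of probes called over the array was 0 in all fits but 1, among them each fit without 1 pool pair (0 to 0). The exception treated all 8 arrays as separate samples (no replicate block) and called 7, none of them of these genes. Of the 11 probes, 1 had an unadjusted p under 0.05. That count was 2 with a normexp offset of 0, with scaling between arrays, with no filter and with limits from the median plus 2 scaled MADs, 3 with no replicate block, 4 with the replicate block as a random effect beside dye terms for the slides, and 1 to 4 without 1 pool pair, with 2 without pool pair 1 and 4 without pool pair 3. Probes above 0 numbered 6 to 7 without 1 pool pair and 8 on slide 87 alone. Over all probes the count at an unadjusted p under 0.05, 1287, was 2492 with no replicate block, 2365 with the random block, 2776 on slide 88 alone, 2314 without pool pair 1 and 440 of the 8942 probes above the limit on all 8 arrays, which left 4 of the 11. Leaving out array 1 of slide 87, an alternative chosen after seeing the data, gave 0 called and 1 of 11, and moved FSHR from -0.03 to -0.23, INHA from 0.12 to 0.05 and NR5A1 from -0.13 to -0.03, the others by less than 1.5 times. With the median-based limits 12 of the 15 probes were kept. The kept CYP19A1 probes shared their sign on 8 arrays without background subtraction, with median centring and in the authors' values. LHCGR, FOXL2 and, near the limit, FSHR and INHA are bounded by signal over background.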

Other observations

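The authors' deposited table gave the same order of pool pairs for CYP19A1. Averaged over the 2 arrays of a number, EMBV3_36093 had -0.22, -0.51, -0.42 and -0.74 in the authors' deposited table for pool pairs 1 to 4, and INHBA had 0.08, 1.44, -0.30 and 0.25. For STAR in pool pair 4, the authors' deposited table held 0.42 for EMBV3_03849 and -0.48 for EMBV3_20036, so the opposite signs are in those values too.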
